A study of Mus musculus with 2 samples.

Results

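The histone genes of the mouse were followed in CD4 and CD8 double-positive (DP) thymocytes, the cells that make up most of the thymus. They were taken as every gene of the deposited table whose symbol begins with *Hist1h* to *Hist4h*, *H2af*, *H3f3* or *H1f*. This gave 84 of 21041 genes, of which 68 were clustered genes (*Hist1h* to *Hist4h*) and 16 were variant genes (*H2af*, *H3f3* and *H1f*). The study asked what the loss of Cxxc1, a subunit of the Setd1 complex that trimethylates lysine 4 of histone H3, does to developing T cells. RNA-seq was analysed for 2 libraries, 1 of WT DP cells and 1 of *Cxxc1*-deficient DP cells, called deficient cells here. The study describes the WT mice as *Cxxc1* fl/fl, carrying *loxP* sites around exons 4 and 5, and gives *Cxxc1* fl/fl h*CD2*-Cre for the others. In these, Cre is driven by human *CD2* sequences and acts in lymphoid cells from early thymocyte stages onwards. The genotype label of the deficient library reads Cxxc1+/- and that of the other reads wild type, so the label and the study differ, and the libraries were named here by their titles and by the study. Mice were 3 to 4 weeks of age unless stated otherwise; the sex and the number of mice behind each library are not given in the sources used here.

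Nucleosomes consist of histones H2A, H2B, H3 and H4, and linker histone H1 binds the DNA between them. The clustered genes supply these proteins during S phase, and most of their mRNAs end in a conserved stem-loop in place of a poly(A) tail. The variant genes are scattered through the genome, are expressed outside S phase as well, and mostly yield spliced, polyadenylated mRNAs. In the thymus, DP cells arise from a burst of proliferation and then largely stop dividing while they rearrange the T-cell receptor alpha chain.

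The difference between the classes is written in the sequence after the stop codon. Genomic sequence of the NCBIM37 build, the build of mm9, was searched for the stem-loop pattern (GG, 3 bases of any kind, TT, any base, T, any base, A, 3 bases of any kind, CC) on the sense strand within 200 bases after the stop codon. It was present in 61 of the 66 clustered genes with an annotated stop codon (92.4%), in 1 of 12 variant genes (8.33%) and in 122 of 18559 genes of the table (0.657%). The one variant gene was *H2afx*, which is known to yield both stem-loop and polyadenylated mRNA. The stop codon was that of the longest annotated transcript that has one. After it, no pattern was found for the clustered genes *Hist2h2be*, *Hist2h2bb*, *Hist1h2an*, *Hist1h2bp* and *Hist1h2bq*. The longest transcripts of *Hist2h2bb*, *Hist1h2bp* and *Hist1h2bq* are annotated as spliced, and a stem-loop after another stop codon of these genes would be missed. The polyadenylation signal AATAAA stood in the last 50 bases of the longest annotated transcript of 11 of 66 clustered genes (16.7%), *Hist2h2be* among them, of 6 of 12 variant genes and of 55.7% of all genes. The sequences below are shown because this element separates the classes, with the stem-loop in capitals. The core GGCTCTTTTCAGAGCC was shared by 37 members, among them the linker histone genes shown first, the core shown for both H4 genes was shared by 8, and *H2afx* carried another form.
Hist1h1e, chr13:23713646-23713671, minus strand: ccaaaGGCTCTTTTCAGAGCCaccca
Hist1h1c, chr13:23831376-23831401, plus strand: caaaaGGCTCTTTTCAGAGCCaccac
Hist1h4c, chr13:23789953-23789978, minus strand: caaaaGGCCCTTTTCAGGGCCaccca
Hist1h4d, chr13:23673814-23673839, plus strand: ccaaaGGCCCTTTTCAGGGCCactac
H2afx, chr9:44143318-44143343, plus strand: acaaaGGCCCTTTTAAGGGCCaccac

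All values below are the deposited expression values, which are scaled by transcript length. They were read as reads per base of transcript over a constant for each library, which gave whole reads for 48 of the 84 members and approximate ones for the others, *H3f3b*, *H1f0*, *H2afy* and *Hist2h2be* among them. On this scale 1 read on a transcript of 500 bases is worth 8.11 in WT and 9.41 in deficient cells. The WT values summed to 1551994 and those of deficient cells to 981677, and the median gene had 36 in both. As a background, the 1122 olfactory receptor genes, which thymocytes are not known to use, had a median of 22 in WT and 24 in deficient cells, with a 95th percentile of 54.0 and 57. Since each genotype has 1 library, differences lack a replicate check and no test was made. Intervals are approximate 95% Clopper-Pearson intervals from the reads; they cover counting error alone and hold for these 2 libraries, not for the genotypes. In RNA from a cell population, fewer cells that use a gene and less of its RNA per cell cannot be told apart. The targeted gene *Cxxc1* had a value of 91 in WT and 50 in deficient cells, a ratio of 0.549. The value of 50 lay under the 95th percentile of the olfactory receptor genes. It is a value for the gene and does not single out the deleted exons. By qPCR the study reports *Cxxc1* mRNA as almost undetectable in DP cells of the deficient mice, and by western blot the loss of the protein.

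All 9 DP thymocyte markers were above the median gene in both libraries. The lowest was *Ptcra* with 79 in WT and 44 in deficient cells, where the olfactory receptor 95th percentile was 57. All 9 were lower in deficient cells, beside 60.0% of all genes and 95.2% of those with a mean of at least 100. The summed value of the 9 markers was 36410 in WT and 9836 in deficient cells. *Rag1*, a subunit of the V(D)J recombinase, was listed at 20778 and 5058, *Cd8a* at 3503 and 507, and *Cd4* at 2728 and 1257. Most markers of other cells lay within the olfactory receptor range, with 5 genes per list. Their summed values in WT and *Cxxc1*-deficient cells were 162 and 120 for B cells (4 of 5 lower), 104 and 129 for erythroid cells (2 lower, 2 higher, *Hba-a1* at 0 in both), 135 and 128 for macrophages and dendritic cells (2 of 5 lower), 126 and 113 for thymic epithelium (4 of 5 lower) and 127 and 161 for germ cells (2 of 5 lower). The part of any of these cells in the histone values was not tested.

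Among the histone genes, the highest values belonged to a few variant genes and the clustered genes were mostly near or below background. Above the 95th percentile of the olfactory receptor genes were 4 of 16 variant and 10 of 68 clustered genes in WT, and 5 variant and 3 clustered genes in deficient cells. *Hist1h1t* and *Hist1h4d* passed the WT cutoff of 54.0 narrowly, with 55 each, and *Hist1h1a* lay at the cutoff of 57 in deficient cells. The share of all genes above these cutoffs was not counted. Whether the fall from 10 to 3 is particular to clustered histone genes was not tested. A value of 0 in both libraries was listed for 25 clustered genes (36.8%) and for 1 variant gene, *H2afb3*, against 4.35% of all genes. Summed over its members, the clustered class had a value of 1696 in WT and 988 in deficient cells, a ratio of 0.583, and the variant class had 3289 and 987, a ratio of 0.3. Both classes thus reached nearly the same summed value in deficient cells from unequal values in WT.

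**Figure D1:**
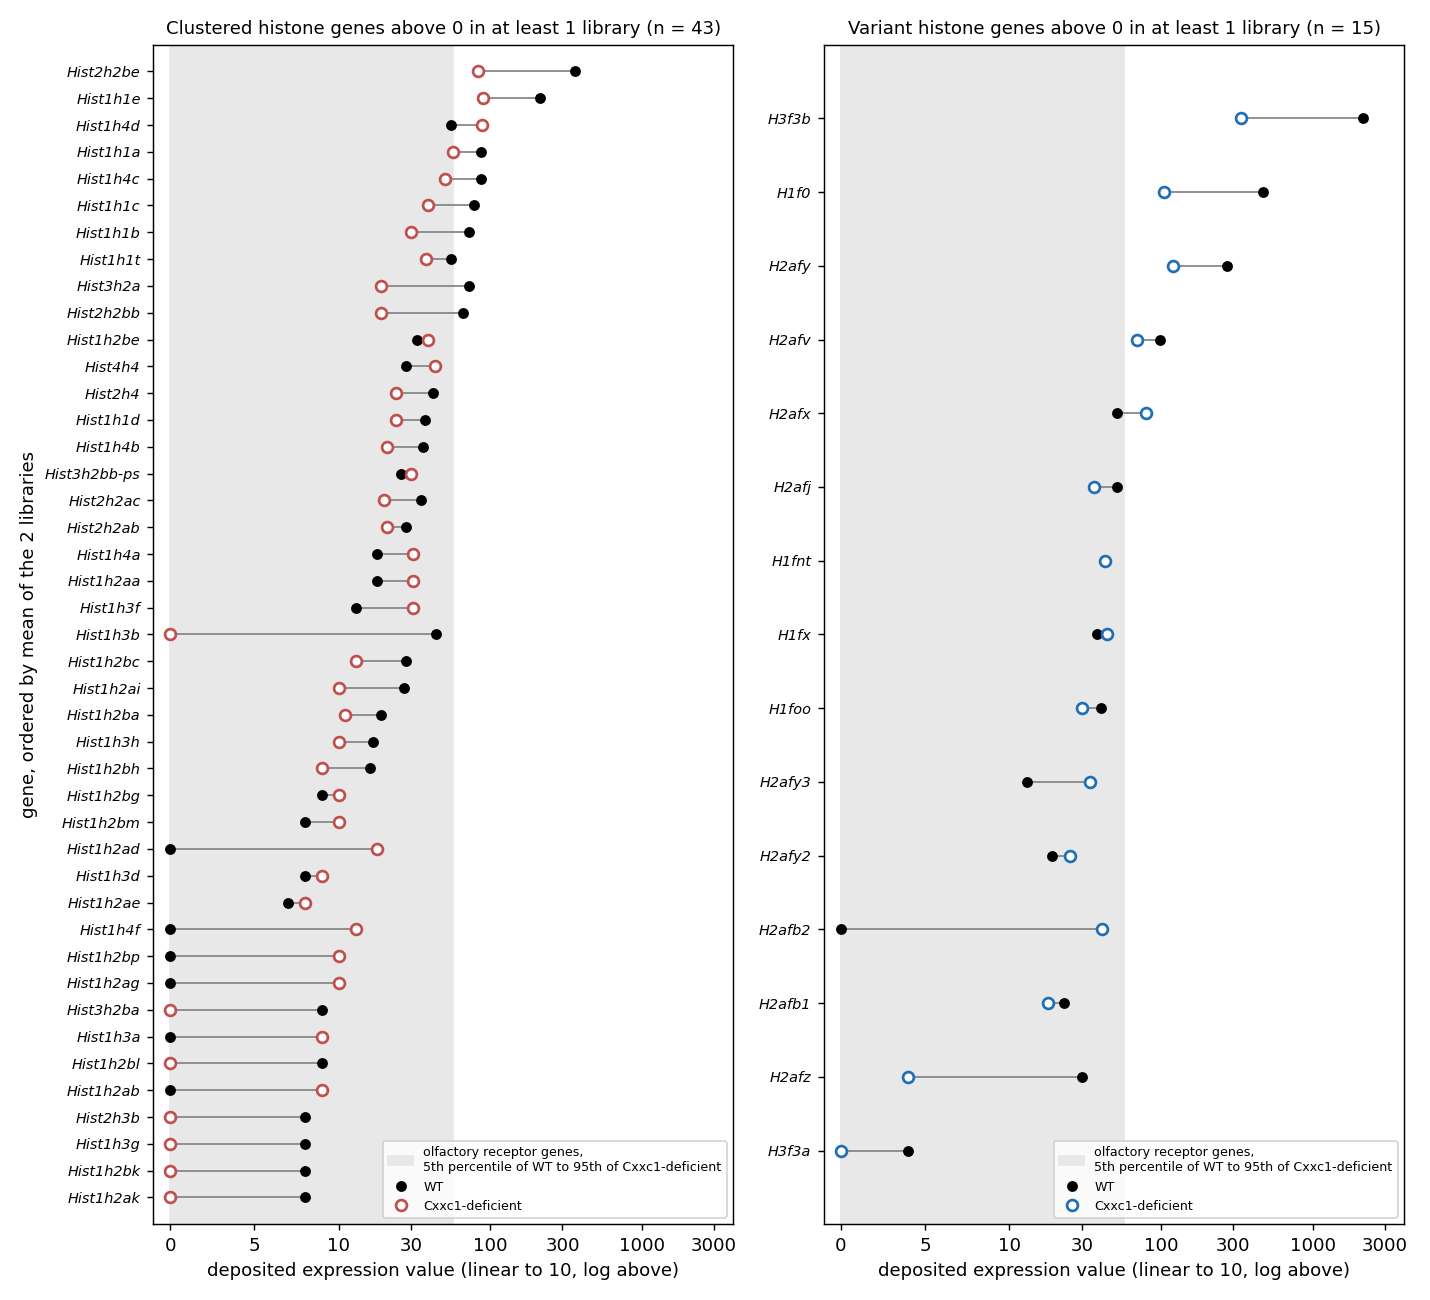
Deposited expression value (horizontal axis, linear to 10 and logarithmic above) of each clustered (left, n = 43) and variant (right, n = 15) histone gene above 0 in at least 1 library, with WT as filled and *Cxxc1*-deficient as open points joined by a line, and with no error since each is 1 library. The grey band spans the 5th to 95th percentiles of olfactory receptor genes (0 to 57), and *H3f3b*, *H1f0*, *H2afy*, *H2afv*, *Hist2h2be* and *Hist1h1e* lie to the right of it in both libraries, with WT farther right; for *H1fnt* the points coincide at 43.

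Of the variant genes, *H3f3b* had the highest value, whereas *H3f3a*, the other gene for the same histone, was near 0. H3.3 is the replacement form of H3, which chaperones place into chromatin outside S phase, and *H3f3a* and *H3f3b* encode the same protein. *H3f3b* (chromosome 11, 115883226 to 115889276, minus strand) had a value of 2137 in WT and 338 in deficient cells. It was 6.32-fold lower, with an interval from 5.4 to 7.41 based on approximately 1325 and 181 reads. With a shorter annotated transcript of 1993 bases, the same values would stand for 1050 and 143 reads with an interval from 5.31 to 7.59, and with the shortest, of 773 bases, for 407 and 56 reads with an interval from 4.73 to 8.44. Among the 39 genes whose mean reached 1000, 5 (12.8%) were at least as far lower, and their median was 3.52-fold lower. *H3f3a* (chromosome 1, 182730963 to 182744074, minus strand) was listed at 4 in WT and 0 in deficient cells, which is 1 read and none. With 2 mismatches allowed, 64.5% of the 50-base windows of its longest annotated transcript occur at 1 place in the genome, against 56.7% for *H3f3b*. The reads of *H3f3a* were taken on a shorter annotated transcript, which the 64.5% does not describe. Within its coding sequence 0% of windows occur at 1 place, against 11.1% for *H3f3b*. Since only uniquely mapped reads were kept, the level of *H3f3a* is uncertain. Its value near 0 does not show that the gene was silent.

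The linker histone variants differed among themselves. *H1f0* (chromosome 15, 78859152 to 78859689, plus strand, in an annotation that ends before the 2293-base RefSeq transcript used for its reads) encodes H1.0, a linker histone known to accumulate in cells that have stopped dividing. Its value was 469 in WT and 105 in deficient cells, 4.47-fold lower with an interval from 3.31 to 6.17. Of the 2066 genes with a mean from 100 to 300, 48 (2.32%) were at least as far lower, against a median of 2.04-fold lower in that range. *H1fx*, a widely expressed linker histone, had 38 in WT and 44 in deficient cells. The germ-cell linker histones *H1fnt* of spermatids and *H1foo* of oocytes had 43 and 43, and 40 and 30. These last 3 genes lay within the olfactory receptor range in both libraries.

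The H2A variants held the third gene well above background. *H2afy* (chromosome 13, 56174980 to 56237722, minus strand) encodes macroH2A1, which carries a large macro domain and is enriched on silent chromatin. It had 272 in WT and 120 in deficient cells, 2.27-fold lower with an interval from 1.79 to 2.85, or 1.64 to 3.19 with a transcript of 2046 bases. With the shortest annotated transcript, of 547 bases, the values would stand for 37 and 14 reads in place of 269 and 103, and the interval would run from 1.2 to 4.56. At its level 783 of 2066 genes (37.9%) were at least as far lower. Its relative *H2afy2* (macroH2A2) had 19 and 25, and *H2afy3* had 13 in WT and 34 in deficient cells, from approximately 6 and 14 reads, 2.62-fold higher with an interval of the ratio from 0.977 to 8.59. The macroH2A genes at background level therefore lay the other way from *H2afy*, within counting error.

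H2A.Z, which marks nucleosomes at promoters and enhancers, is encoded by *H2afz* and *H2afv*. *H2afz* (chromosome 3, 137527451 to 137529886, plus strand) had 30 in WT and 4 in deficient cells, which is 8 reads and 1 read, and its 7.5-fold lower value had an interval from 0.925 to 306. Only 9.71% of the 50-base windows of its transcript, and 0% of those of its coding sequence, occur at 1 place in the genome. *H2afv*, of which 88.9% of windows are unique, had 99 in WT and 69 in deficient cells, 1.43-fold lower with an interval from 0.845 to 2.49. The better measured H2A.Z gene thus differed by less than its counting error.

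*H2afx* (chromosome 9, 44142798 to 44144154, plus strand) encodes H2A.X, which is phosphorylated around DNA double-strand breaks, including those made by the V(D)J recombinase. It had 51 in WT and 80 in deficient cells, from 17 and 23 reads, 1.57-fold higher with an interval of the ratio from 0.802 to 3.13. It was the variant gene with the highest value among those not lower in deficient cells. *H2afj*, a replication-independent H2A, had 51 in WT and 36 in deficient cells. The short H2A.B genes, known from testis, had 23 and 18 for *H2afb1*, 0 and 41 (no reads and 3) for *H2afb2*, and 0 in both for *H2afb3*.

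Counted by direction, 9 of the 15 variant genes above 0 in at least 1 library were lower in deficient cells, 5 were higher and 1 was equal. The share of lower genes was thus the 60.0% of all genes, of which 37.2% were higher. Over the 13 above 0 in both, the log2 ratio of deficient cells to WT had a median of -0.42, against -0.20 over all genes. At least 2-fold lower were 4 genes (*H3f3b*, *H1f0*, *H2afy* and *H2afz*), against 16.3% of all genes, and at least 2-fold higher was 1 (*H2afy3*), against 4.98%. The interval lay wholly below a ratio of 1 for *H3f3b*, *H1f0* and *H2afy*, and above 1 for none of the 16. Such intervals were not made for genes outside the histone set. When the libraries were scaled to equal sums over all but the 100 most abundant genes, a factor of 1.476 on the deficient library, the median log2 ratio of the variant genes turned to 0.15 with 5 genes lower, and that of all genes turned to 0.36 with 32.6% lower.

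Of the clustered genes, the 6 of the linker histone H1 were all lower in deficient cells, beside 60.0% of all genes and 95.2% of those with a mean of at least 100. With the scaling to equal sums named above, *Hist1h1t* turned to a ratio of 1.02. All lie in the large cluster on chromosome 13, which holds 54 of the 68 clustered genes, while 10 lie on chromosome 3, 3 on chromosome 11 and 1 on chromosome 6. *Hist1h1e* (H1.4; chromosome 13, 23713624 to 23714371, minus strand) had the highest value of the 6, with 213 in WT and 90 in deficient cells, from 41 and 15 reads. It was 2.37-fold lower with an interval from 1.28 to 4.58, and 689 of 2066 genes of its level (33.3%) were at least as far lower. The other 5 were *Hist1h1a* with 87 and 57, *Hist1h1c* with 78 and 39, *Hist1h1b* with 72 and 30, the testis gene *Hist1h1t* with 55 and 38, and *Hist1h1d* with 37 and 24. Each of their intervals included a ratio of 1. Together the 6 had 102 reads in WT and 45 in deficient cells, a ratio of 0.512 after the constants of the libraries. The interval ran from 0.352 to 0.733 and would reach past 1 with the scaling to equal sums. The median log2 ratio of the 6 was -0.81.

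The highest clustered value belonged to *Hist2h2be* (chromosome 3, 96025044 to 96027661, plus strand), an H2B gene. The stem-loop pattern was not found in the window searched after its stop codon. A polyadenylation signal stood near the end of its longest annotated transcript, and its reads were taken on a 2667-base RefSeq transcript. *Hist2h2be* had 364 in WT and 83 in deficient cells, from approximately 239 and 47 reads, 4.39-fold lower with an interval from 3.2 to 6.13. Of the 2066 genes of its level, 58 (2.81%) were at least as far lower. *Hist2h2be* alone held more than 50% of the approximate reads on clustered genes in WT, 239 of 448. Its reads scale with the transcript length taken, and in deposited values it had 364 of the clustered WT sum of 1696. The neighbouring H2B gene *Hist2h2bb*, also without the pattern after the stop codon searched, had 66 in WT and 19 in deficient cells, 3.47-fold lower from 8 and 2 reads. Among clustered genes above 0 in both libraries, *Hist2h2be* had the highest WT value and the lowest ratio.

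**Figure D2:**
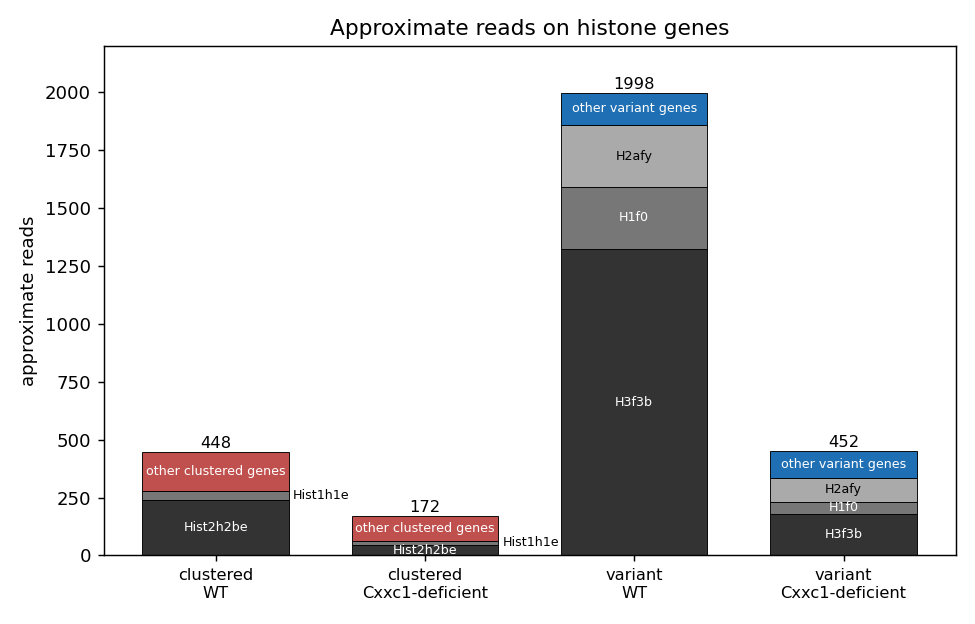
Approximate reads (vertical axis, linear from 0) on the clustered and the variant histone genes in each library, stacked by gene, with no error since each bar is 1 library. *H3f3b* makes up most of the variant reads in WT (1325 of 1998) and *Hist2h2be* most of the clustered reads (239 of 448), and both are shorter segments in deficient cells (181 and 47).

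The clustered core histone genes other than *Hist2h2be* were thinly covered. Of the 18 clustered H2A genes, 10 were above 0 in at least 1 library, 5 lower and 5 higher in deficient cells, with summed values of 195 in WT and 146 in deficient cells. Of the 19 H2B genes, 13 were above 0, 8 lower and 5 higher, with 595 and 234, of which *Hist2h2be* was the larger part in WT. Of the 12 H3 genes, 7 were above 0, 4 lower and 3 higher, with 98 and 59. Of the 13 H4 genes, which encode the same protein, 7 were above 0, 3 lower and 4 higher, with 266 and 271. In reads, H4 had 26 in WT and 24 in deficient cells, a ratio of 1.07 with an interval from 0.588 to 1.94, which overlaps that of H1.

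Single core histone genes were lower or higher by amounts that a few reads decide. *Hist1h4c* had 87 in WT and 50 in deficient cells from 8 and 4 reads, and *Hist1h4d* had 55 and 89 from 5 and 8 reads. Among clustered genes above 0 in both libraries, the lowest ratios after *Hist2h2be* were those of *Hist3h2a*, with 72 and 19 from 9 and 2 reads, and of *Hist2h2bb*. The highest ratios among them were those of *Hist1h3f*, with 13 and 31 from 3 and 6 reads, and of *Hist1h4a* and *Hist1h2aa*, each with 18 and 31 from 2 and 3 reads. A further 7 of the 68 clustered genes were above 0 in WT alone, *Hist1h3b* highest with 44 from 5 reads, and 6 in deficient cells alone. Of all 21041 genes, 319 were above 0 in WT alone and 211 in deficient cells alone. At most 3 reads in both libraries were found for 49 of the 68 clustered genes, and 11 were known from a single read, 6 in WT and 5 in deficient cells. An interval excluded a ratio of 1 only for *Hist1h1e* and *Hist2h2be*. Intervals were not made for genes outside the histone set. The intervals, also that of the H1 genes together, were made without rescaling the libraries. With the scaling to equal sums, the ratio of *Hist1h1e* was 0.624 in place of 0.423 and that of *Hist2h2be* 0.337 in place of 0.228. The same factor of 1.476 would take the upper ends for *Hist1h1e* (0.783) and for the H1 genes together (0.733) past 1. The upper end for *Hist2h2be* (0.313) would stay below 1.

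By direction, 26 of the 43 clustered genes above 0 in at least 1 library were lower in deficient cells and 17 were higher. The share of 60.5% lower is that of all genes (60.0%). Over the 30 above 0 in both, the median log2 ratio was -0.70, against -0.20 over all genes. At least 2-fold lower were 8 of the 30, against 16.3% of all genes, and at least 2-fold higher was 1, against 4.98%. With the olfactory receptor median subtracted from each library, 24 clustered genes were above 0 in at least 1 library and 17 of them (70.8%) were lower, against 66.9% of all genes. With the scaling to equal sums just named, 24 were lower (all genes 32.6%) and 3 were at least 2-fold lower (all genes 5.16%).

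**Figure D3:**
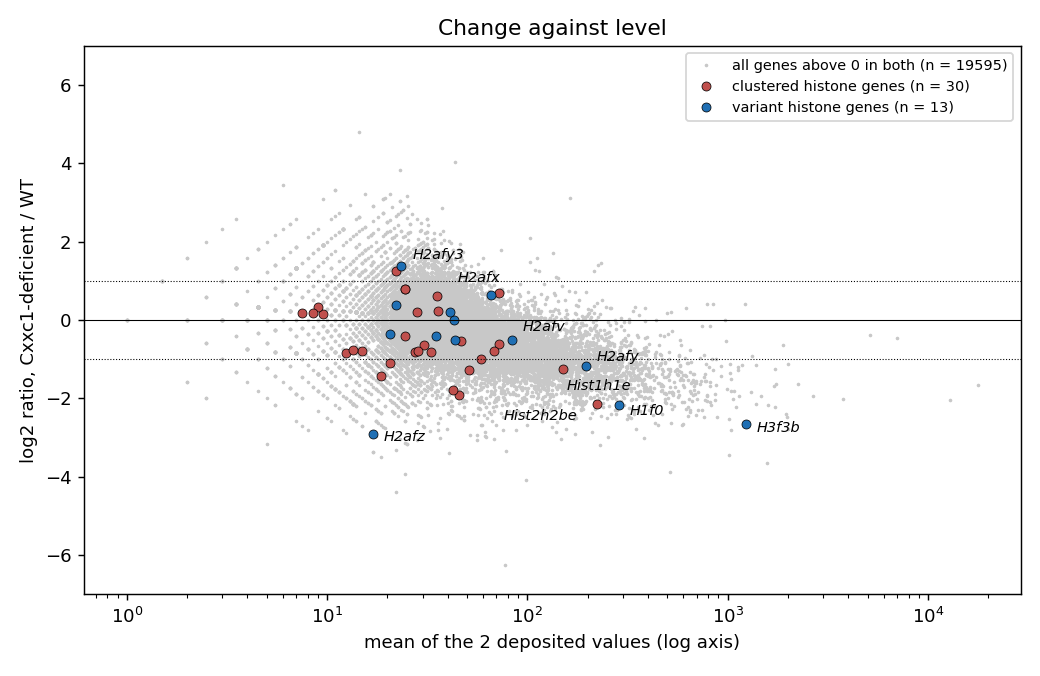
Log2 ratio of *Cxxc1*-deficient to WT (vertical axis, 2-fold changes dotted) against the mean of both deposited values (horizontal, log axis) for 19595 genes above 0 in both libraries, with 30 clustered histone genes in red and 13 variant genes in blue, and with no replicates. The cloud of all genes bends downwards at higher levels, from a median of -0.10 under a mean of 100 to -1.08 from 100 upwards, and all 5 histone genes in the upper range are below -1.

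The level of a gene and its ratio went together across the table, and the classes differ in level. Among the 2472 genes whose mean reached 100, 95.2% were lower and 56.8% at least 2-fold lower in deficient cells, and among the genes under 100, 55.1% were lower, 41.8% higher and 10.5% at least 2-fold lower. Only 2 clustered genes (*Hist2h2be* and *Hist1h1e*) and 3 variant genes (*H3f3b*, *H1f0* and *H2afy*) reached a mean of 100. Their median log2 ratios were -1.69 and -2.16, against -1.08 over all genes of that level. Under a mean of 100, 24 clustered genes were lower and 17 higher with a median of -0.62, 6 variant genes were lower and 5 higher with a median of -0.18, and the median over all such genes was -0.10.

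In reads, the clustered genes had 448 in WT and 172 in deficient cells, a ratio of 0.445 after the constants of the libraries, with an interval from 0.371 to 0.532. The variant genes had 1998 and 452, a ratio of 0.262 with an interval from 0.236 to 0.291. Without *Hist2h2be* the clustered genes had 209 and 125 reads and a ratio of 0.694, from 0.551 to 0.87. Without *H3f3b* the variant genes had 673 and 271 reads and a ratio of 0.467, from 0.404 to 0.539. The variant reads were thus the lower fraction of WT both with and without the leading gene of each class. Most of the 673 variant reads left in WT lay on *H1f0* and *H2afy*, with approximately 265 and 269. Without the leading genes the variant interval ended at 0.539 and the clustered one began at 0.551. The reads of *H2afy* and *Hist1h2be*, among others, are approximate and depend on the transcript length chosen, so counting error alone does not settle this order. This order did not hold for the genes under a mean of 100, whose summed values were 1119 and 815 in the clustered class (0.728) and 411 and 424 in the variant class (1.03). With the rate of olfactory receptor genes over the same transcript lengths, the clustered genes without *Hist2h2be* would have received 219 reads in WT and 206 in deficient cells. The 209 and 125 reads that they had were below that in both libraries.

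How much of a histone mRNA can be counted depends on how much of it is unique, since only uniquely mapped reads were kept. Of the 50-base windows of a transcript, the median share that occurs at 1 place in NCBIM37 with 2 mismatches allowed was 31.8% for the 68 clustered genes, 84.4% for 14 variant genes and 63.5% for 1101 olfactory receptor genes. Within coding sequences the median was 0% for clustered and 61.3% for variant genes, and 34 of 66 clustered coding sequences had no unique window. Linker histone genes were the exception among the clustered genes, with a median of 93.2%, against 28.2% for H2A, 28.3% for H2B, 29.7% for H3 and 35.2% for H4. The 25 clustered genes at 0 in both libraries had a median of 4.61%, and the 43 above 0 had 44.8%. The 7 with a mean of at least 50 had 84.4%. One gene at 0 in both, *Hist1h2ac*, had 85.3% in an annotated transcript that is longer than its 487-base RefSeq transcript. The levels of near-identical clustered genes are therefore uncertain, and a value of 0 does not show that a gene was silent.

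**Figure D4:**
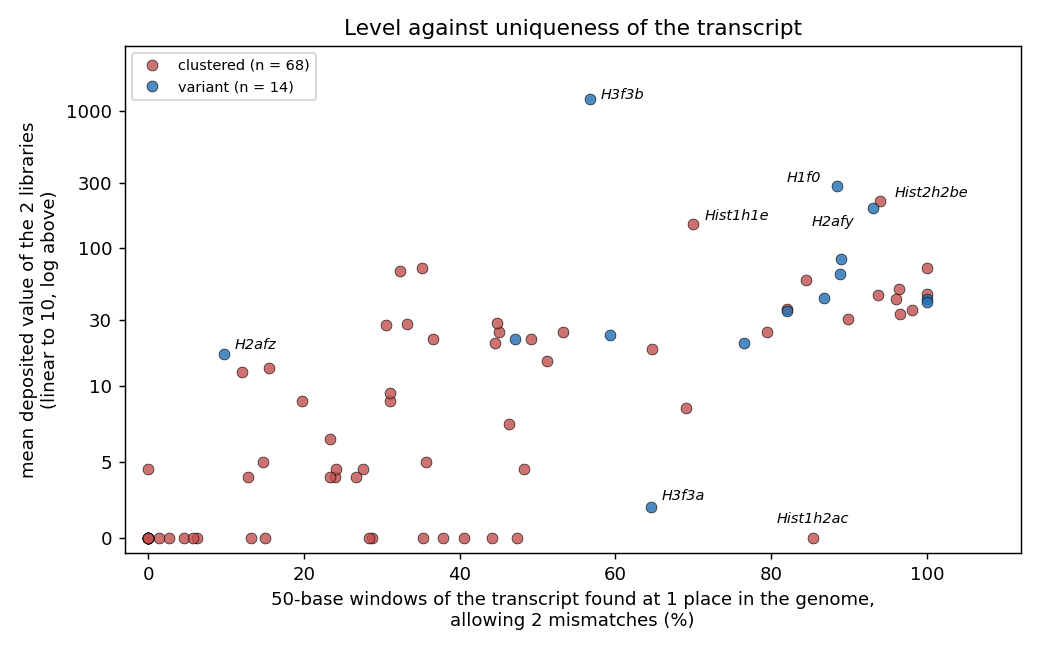
Mean deposited value of both libraries (vertical axis, linear to 10 and logarithmic above) against the percent of 50-base transcript windows found at 1 place in the genome with 2 mismatches allowed (horizontal), for 68 clustered (red) and 14 variant (blue) histone genes, each point 1 gene. No clustered gene with under 30% unique windows exceeds a mean of 20, and *H3f3b* combines the highest level with 56.7%.

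Cxxc1 is known as a protein that binds unmethylated CpG dinucleotides. The study reports that only a small part of its binding sites in DP cells lay at CpG islands or in promoters. In averaged profiles the study found binding raised at the centre of CpG islands and at transcription start sites. It also reports that a Cxxc1 mutant without DNA binding still allowed DP cells to form. Cxxc1 binding at histone promoters was not examined here. Promoters of the variant genes *H3f3b* and *H1f0* and of the linker histone gene *Hist1h1e* are shown with each CpG in capitals. The intervals of these genes lay below a ratio of 1 without rescaling of the libraries. The promoter of *H2afy*, whose interval also lay below 1, is not shown, and no promoter sequence of *Hist2h2be* was used here. The sequences shown run from 250 bases before to 50 after the RefSeq start in GRCm38.p6, a later build than that of the deposited values. *H3f3b* has 24 CpG, *H1f0* 29, *Hist1h1e* 22 and *H2afy* 37. Of the variant genes higher in deficient cells, *H1fx* has 40, *H2afy2* 23 and *H2afb2* 5, and no promoter was found for the others. A link between CpG number and ratio was not tested.
H3f3b, chr11:116024455-116024754, minus strand: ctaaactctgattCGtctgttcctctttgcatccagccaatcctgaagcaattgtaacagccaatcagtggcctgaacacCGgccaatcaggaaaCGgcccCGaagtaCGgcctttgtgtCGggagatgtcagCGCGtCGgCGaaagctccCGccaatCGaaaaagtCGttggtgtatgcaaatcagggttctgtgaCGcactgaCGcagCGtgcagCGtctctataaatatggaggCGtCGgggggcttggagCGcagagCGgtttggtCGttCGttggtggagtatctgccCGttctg
H1f0, chr15:79027962-79028261, plus strand: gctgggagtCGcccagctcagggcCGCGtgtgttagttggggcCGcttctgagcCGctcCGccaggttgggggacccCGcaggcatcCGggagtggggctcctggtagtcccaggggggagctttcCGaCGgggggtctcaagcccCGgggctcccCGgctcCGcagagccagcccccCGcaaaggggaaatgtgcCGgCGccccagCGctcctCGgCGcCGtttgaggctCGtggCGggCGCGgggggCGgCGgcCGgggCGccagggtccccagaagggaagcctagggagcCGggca
Hist1h1e, chr13:23622509-23622808, minus strand: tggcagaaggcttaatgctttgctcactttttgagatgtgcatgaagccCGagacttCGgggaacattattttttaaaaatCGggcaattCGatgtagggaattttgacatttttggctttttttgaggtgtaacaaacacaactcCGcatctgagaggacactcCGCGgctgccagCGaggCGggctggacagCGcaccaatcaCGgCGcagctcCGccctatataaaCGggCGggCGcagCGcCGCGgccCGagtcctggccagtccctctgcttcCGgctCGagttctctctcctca

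Promoters of the same length were found for 61 clustered and 13 variant genes. The clustered promoters held a median of 11 CpG (3 to 41), the variant promoters 24 (3 to 40), and all 32851 RefSeq promoters 7. The 3 letter patterns CCAAT, the core of the site of NF-Y, TATAAA, the TATA box, and ATTTGCAT, the octamer of Oct-1, were searched on both strands, and none of the patterns contains another. CCAAT was found in 85.2% of clustered, 69.2% of variant and 37.4% of all promoters, TATAAA in 57.4%, 7.69% and 13.6%, and ATTTGCAT in 23.0%, 7.69% and 1.74%. Among clustered promoters ATTTGCAT was found only in those of H2A (41.2%) and H2B (43.8%), and CCAAT in 100% of H1, H2A, H2B and H3 but in 3 of 12 H4 promoters. The *H3f3b* promoter held all 3 patterns, *Hist1h1e* held CCAAT and TATAAA, and *H1f0* held none. A pattern is a run of letters and not a measured site.

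Genes that make, process and place histones were set beside the histone genes. Of 18 genes for histone mRNA transcription and processing, 14 were lower in deficient cells, 3 were higher and 1 was equal, with a median log2 ratio of -0.61 and 4 at least 2-fold lower. Of all genes, 60.0% were lower and 16.3% at least 2-fold lower, and of those with a mean of at least 100, 95.2% and 56.8%. Those of highest mean were *Casp8ap2* (FLASH, which brings the cleavage machinery to histone pre-mRNA) with 391 in WT and 152 in deficient cells, *Cstf2* (the CstF-64 cleavage factor) with 191 and 182, and *Eri1* (an exonuclease that trims the stem-loop end) with 219 and 92. *Slbp*, which encodes the protein that binds the stem-loop and was looked up for that role, had 22 and 31. Of 26 histone chaperone and exchange genes, 24 were lower and 2 higher, with a median of -0.94 over the 25 above 0 in both and 10 at least 2-fold lower, beside the same shares of all genes. *Anp32e*, which removes H2A.Z from nucleosomes, had 1247 and 329, *Atrx*, which acts in H3.3 deposition with Daxx, had 862 and 329, and *Ubn1* of the HIRA complex for H3.3 had 237 and 118.

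Of 30 genes of S phase and proliferation, 21 were lower, 7 higher and 2 equal in deficient cells, with a median log2 ratio of -0.19, close to the -0.20 of all genes, and 2 at least 2-fold lower. *Mki67*, the proliferation marker Ki-67, had 204 in WT and 187 in deficient cells. The replication helicase genes *Mcm4* and *Mcm2* had 110 and 69, and 82 and 87. Histone genes outside the symbol rule had 50 and 57 for the centromeric H3 gene *Cenpa*, 20 and 65 for the spermatid gene *Hils1*, and 23 and 13 for *H2bfm*. The chaperone list had the higher values of these lists, with a median of 104 in WT, against 82 for the processing list and 39.5 for the S phase list, so level and list cannot be told apart here.

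**Figure D5:**
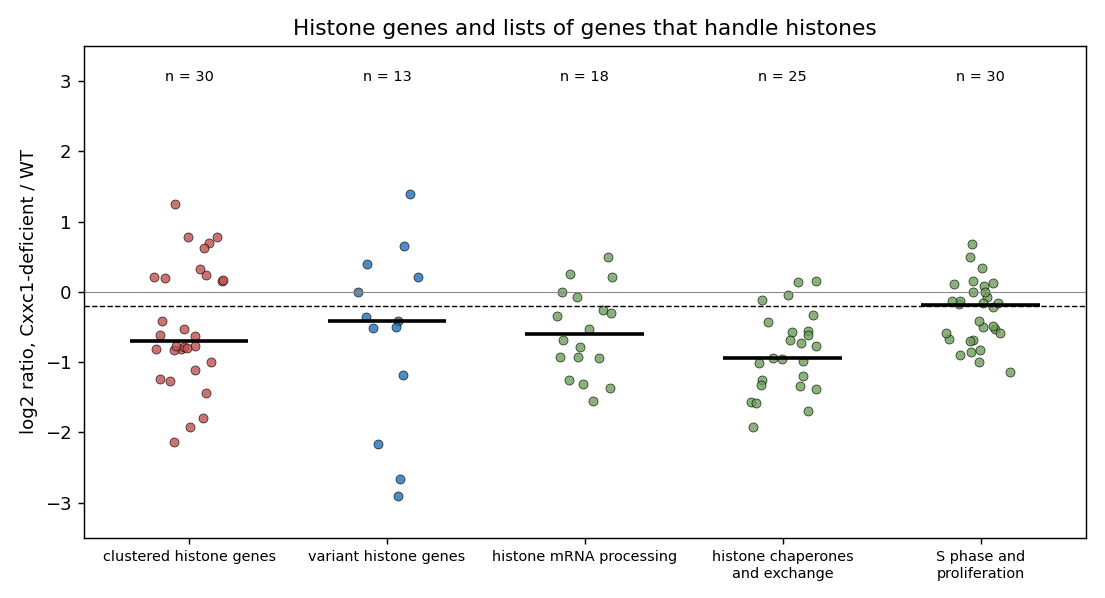
Log2 ratio of *Cxxc1*-deficient to WT (vertical axis) for genes above 0 in both libraries in 5 groups (horizontal; points are genes spread sideways for legibility, thick lines are medians, the dashed line at -0.20 is the median of all genes). The medians are -0.70 for clustered and -0.42 for variant histone genes, -0.61 for histone mRNA processing, -0.94 for chaperones and exchange, and -0.19 for S phase and proliferation.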

How the data were processed

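RNA-seq was analysed for 2 samples, 1 WT and 1 *Cxxc1*-deficient library of DP thymocytes, from mRNA libraries of total RNA with 50-base reads. The authors kept reads mapped uniquely to mm9 and used Partek for analysis; the submitters' processing notes also name CASAVA 1.8.2 and Bowtie 1.0.1. A poly(A) selection step, the mismatch setting, the annotation and the strand setting are not given in the sources used here. The deposited values are a score: a length-scaled expression level of each gene that the authors rounded, used here as deposited. Both deposited columns were used.

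A value was taken as reads times 1e9, divided by the transcript length and a constant of the library. The constants, 246580 in WT and 212600 in *Cxxc1*-deficient cells, were found from olfactory receptor genes of 900 to 1000 bases. Within the rounding of the values, 707 of 712 such genes in WT and 697 of 702 in *Cxxc1*-deficient cells then held whole reads, and shifted constants gave 83 to 205 and 80 to 127. For members, an annotated RefSeq or GENCODE vM1 length was used under which both values came out as whole reads (to 0.15 reads) where there was one, which held for 48 of 84; for the others the RefSeq or longest length was used and reads are approximate. RefSeq matched all 84 members and GENCODE vM1 on NCBIM37 matched 82. Directions were counted over genes detected in either library, log2 ratios over genes detected in both with no pseudocount, and the threshold was 2-fold. No test was run. Members and lists were chosen with earlier results of these data known. Genes were named by rule: all variant genes, the 10 clustered genes of highest mean, and the 3 largest falls and rises. The 3 of highest mean per list were named too. *Slbp*, *Ptcra*, *Hist1h2ac*, *Hist1h3b* and genes without the stem-loop pattern where searched were added after their values were seen. Intervals and depth scripts were tested on simulated data. Software was numpy 2.4.6, scipy 1.17.1, numba 0.67.0, pandas 2.3.3 and matplotlib 3.10.9 under Python 3.11.15.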

Additional observations from a re-analysis of the deposited data

How the results depend on the processing

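No paired analysis was possible because WT and deficient cells have 1 library each. Scaling the libraries to the same median (factor 1.027 on *Cxxc1*-deficient values) moved none of the class values beyond the limits used here. Scaling to the same 75th percentile (1.308) gave 4 clustered genes at least 2-fold lower in place of 8, and summed ratios of 0.762 in place of 0.583 for clustered and 0.392 in place of 0.3 for variant genes. Scaling to equal sums over all but the 100 most abundant genes (1.476) gave 3 clustered genes at least 2-fold lower, summed ratios of 0.86 and 0.443, and turned the direction of the variant class, with 5 genes lower in place of 9 and a median log2 ratio of 0.15 in place of -0.42. The clustered median stayed negative, at -0.13. With the olfactory receptor median subtracted, 17 clustered genes were lower in place of 26, of 24 in place of 43 above 0, so that the share was 70.8% in place of 60.5%. A 3-fold threshold left 3 clustered genes, and a floor of 1 raised the number to 15, since genes at 0 then count. Chosen after seeing the data, a mean of at least 100 gave medians of -1.69 and -2.16, and the variant sum without *H3f3b* had a ratio of 0.563. The ratio of *H3f3b* ranged from 0.158 to 0.233 over these scalings. For most clustered genes depth and unique sequence limit what can be seen, and without a second library per genotype the spread between mice is unknown.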
